A study of Mus musculus with 66 samples.

Results

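The 4 Mef2 genes, Mef2a, Mef2b, Mef2c and Mef2d, were taken by symbol from a table of mRNA levels of 22489 genes in C2C12 cells, a mouse myoblast line, and all 4 were found in it. The table held 20 libraries from 10 lines, each with 1 library in growth and 1 after differentiation. 9 lines carried a doxycycline-inducible histone H3 gene with GFP at its N-terminus, inserted by a transposon into Tet-On C2C12 cells and sorted for GFP. The tagged proteins were H3.1, H3.2 and H3t, and, of the H3.3 type, H3mm16, H3mm13, H3mm12, H3mm11, H3mm7 and H3.3 itself. The 10th line, WT, carried no tagged H3. Growing cells were kept in 20% fetal bovine serum and collected before confluence, and differentiated cells were collected 48 h after a change to 2% horse serum. Each line was a single selected population, so that a difference between 2 lines had no replicate check and the 10 lines served as the replicates of a state. The H3t columns carried the name H3mmT and were taken as H3t because no other line name ended in that letter. Levels are FPKM, fragment counts divided by the length of the transcript and by the mapped fragments of the library. They are set per length and can be compared between genes only as far as the transcript lengths used are right. Those lengths and the number of reads behind each library were unknown.

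MEF2 proteins are transcription factors of the MADS-box family. They bind an A/T-rich element in the promoters and enhancers of muscle genes, act together with the myogenic bHLH factors MyoD and myogenin, and are held inactive by class IIa histone deacetylases until kinase and calcium signals release them. Mef2c is known as an early and strong activator in skeletal and cardiac muscle, Mef2a and Mef2d are expressed in many tissues, and Mef2b is best known from B lymphocytes.

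In mm9, the build of the files, the GENCODE annotation placed Mef2a at chr7:74376049-74517744 on the minus strand, Mef2b at chr8:72676677-72691387, Mef2c at chr13:83643033-83806684 and Mef2d at chr3:87946294-87976008, the last 3 on the plus strand. The 4 genes code for the same DNA-binding fold, so the starts of their coding sequences are shown to let the reader see how alike the transcripts are. The first 30 coding bases of the longest coding transcript of each gene are given 5′ to 3′ on the coding strand, with the 18 positions that were identical in all 4 genes in capitals. They lie in coding exons at chr7:74461702-74461731 (minus), chr8:72688150-72688179 (plus), chr13:83714835-83714864 (plus) and chr3:87959731-87959760 (plus).
Mef2a: ATGGGGcGaAAgAAgATaCAaATcacacGc
Mef2b: ATGGGGaGgAAaAAaATcCAgATctcacGa
Mef2c: ATGGGGaGaAAaAAgATtCAgATtacgaGg
Mef2d: ATGGGGaGgAAaAAgATtCAgATccagcGa
Over the first 258 coding bases the genes were between 74.8% (Mef2a and Mef2b) and 83.7% (Mef2c and Mef2d) identical. Words of 31 bases shared with another member were rare across all annotated coding transcripts: Mef2b and Mef2c had 1 such word and Mef2a and Mef2d had 0. Mef2b lies wholly within the span of 2310045N01Rik on the same strand (chr8:72663398-72691387), so the counting could have split reads between these overlapping genes, and the level of Mef2b is uncertain for that reason.

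Mef2a and Mef2d were the abundant members and Mef2c and Mef2b were low. In growth Mef2d exceeded Mef2a in 10 of 10 lines, and the libraries of these genes did not overlap. Mef2c and Mef2b were near the floor of the table in growth, where Mef2c was the higher of the pair in 8 of 10 lines. After differentiation Mef2d remained above Mef2a in 4 of 10 lines, and Mef2c was above Mef2b in 9 of 10.

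Mef2a rose in every line. In growth it was listed at 15.5 FPKM in WT, 11.2 in H3.1, 13.6 in H3t, 13.7 in H3.2, 10.3 in H3.3, 13.4 in H3mm7, 11.5 in H3mm11, 13.9 in H3mm12, 12.2 in H3mm13 and 12.8 in H3mm16. After differentiation the levels were 88.0 FPKM in WT, 38.3 in H3.1, 40.3 in H3t, 67.8 in H3.2, 40.6 in H3.3, 31.0 in H3mm7, 39.7 in H3mm11, 79.9 in H3mm12, 58.8 in H3mm13 and 54.3 in H3mm16. The lowest differentiated library stood above the highest growing one, WT and H3mm12 were the highest after differentiation and H3mm7 was the lowest. The mean went from 12.8 ± 1.56 to 53.9 ± 19.4 FPKM (SD, n = 10 lines), and the ratio within a line ran from 2.31 in H3mm7 to 5.74 in H3mm12. On the log2(FPKM + 1) scale the change was 1.92 (SE 0.16, limma with Benjamini-Hochberg adjusted p = 1.28e-09). A gene was called at an adjusted p below 0.05 and a log2 change of at least 1, and Mef2a was called higher, as were 8.87% of the 10954 genes tested; 8.85% of those genes were higher with no overlap between the states.

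Mef2d, the most abundant member in growth, changed less. Its growth levels were 25.8 FPKM in WT, 30.4 in H3.1, 17.1 in H3t, 27.6 in H3.2, 29.5 in H3.3, 32.1 in H3mm7, 19.3 in H3mm11, 23.0 in H3mm12, 21.9 in H3mm13 and 23.7 in H3mm16. Its differentiated levels were 76.6 FPKM in WT, 43.4 in H3.1, 28.5 in H3t, 44.7 in H3.2, 46.2 in H3.3, 46.4 in H3mm7, 34.8 in H3mm11, 60.8 in H3mm12, 46.9 in H3mm13 and 56.1 in H3mm16. WT was again the highest after differentiation, H3t was the lowest in both states, and the states overlapped because H3t after differentiation stood below several growing lines. The mean went from 25.0 ± 4.93 to 48.4 ± 13.5 FPKM (SD, n = 10 lines). The level was higher after differentiation in 10 of 10 lines, as for 22.7% of the genes tested, with ratios from 1.43 in H3.1 to 2.96 in WT. The log2 change of 0.90 (SE 0.15, limma adjusted p = 2.19e-05) passed the test, as did 30.5% of the genes in this direction, but was below the size needed for a call.

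Mef2c was low in growth and spread widely after differentiation. In growth it lay between 0.0364 FPKM in H3.1 and 0.277 FPKM in WT, with a median of 0.0710 over 10 lines. After differentiation it was listed at 26.6 FPKM in WT, 0.253 in H3.1, 0.496 in H3t, 1.07 in H3.2, 2.10 in H3.3, 0.569 in H3mm7, 0.228 in H3mm11, 4.15 in H3mm12, 2.23 in H3mm13 and 3.99 in H3mm16. WT stood far above all other lines, H3mm12 and H3mm16 came next, and H3mm11 and H3.1 after differentiation were below WT in growth. The ratio within a line ran from 3.03 in H3mm7 through 88.6 in H3mm16 to 96.2 in WT, and all 10 lines were higher after differentiation. On the log2(FPKM + 1) scale the change was 1.42 (SE 0.41, limma adjusted p = 0.00509), and Mef2c was called. Its mean over the 20 libraries, 2.14 FPKM, passed the filter of 1 FPKM only through the differentiated WT library, since the mean over the 18 libraries of the GFP-H3 lines was 0.887. By the filter applied to those lines alone Mef2c had no test, and its mean change over the 9 lines was 1.08 ± 0.81 (SD). With all lines and with a pseudocount of 0.1 FPKM in place of 1 the change was 3.02.

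Mef2b was the lowest member and had a different order of lines. In growth it was listed at 0 in 5 of 10 libraries and reached 0.0936 FPKM in H3mm7. After differentiation it was 0.0226 FPKM in WT, 0.0956 in H3.1, 0.0377 in H3t, 0.462 in H3.2, 0.494 in H3.3, 0.499 in H3mm7, 0.624 in H3mm11, 0.0754 in H3mm12, 0.321 in H3mm13 and 0.0670 in H3mm16. The libraries fell apart into 5 lines above 0.3 FPKM and 5 lines below 0.1, and WT, the highest line for the other members, was the lowest here. It was higher after differentiation in 9 of 10 lines, all but WT. With a mean of 0.149 FPKM it did not pass the filter and had no test in the comparison reported; the mean change was 0.28 ± 0.27 on the log2(FPKM + 1) scale (SD, n = 10 lines). A fit of all genes without the filter gave 0.28 (SE 0.08, limma adjusted p = 0.00786). It called 1928 of 19103 genes, and Mef2b was below the size for a call. The same fit without WT gave 0.32 (SE 0.08, limma adjusted p = 0.00434). That fit was not planned and leaves out the only line in which Mef2b fell, and no other line was left out of the unfiltered fit. The overlapping gene 2310045N01Rik was listed at 18.8 to 44.1 FPKM in growth and 23.0 to 78.5 FPKM after differentiation, with a change of 0.74 (SE 0.18, limma adjusted p = 0.00143) and with WT lowest in both states; its part in the values of Mef2b was not tested.

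**Figure D1:**
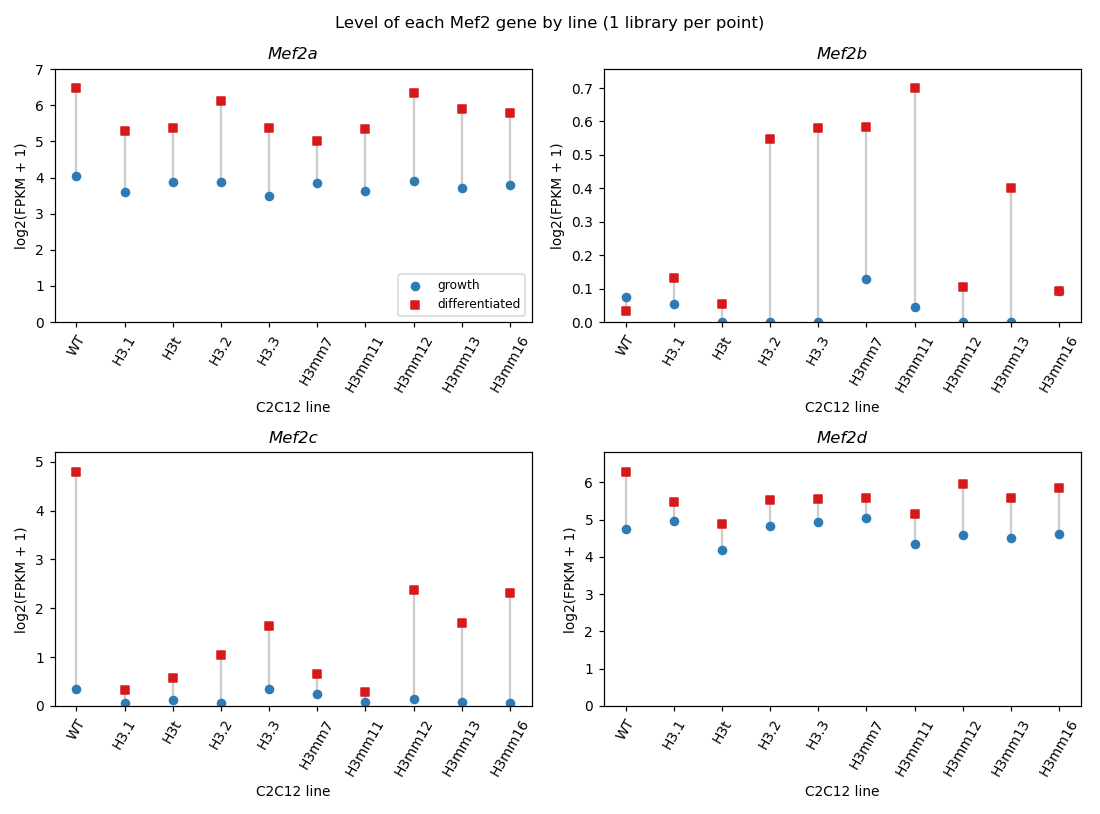
Level of each Mef2 gene on the log2(FPKM + 1) axis in the 10 C2C12 lines, with 1 library per point; circles are growing cells, squares are differentiated cells and the grey line joins the states of a line. The panels have their own axes: Mef2a and Mef2d were higher after differentiation in every line, Mef2c rose most in WT, and Mef2b reached at most 0.624 FPKM.

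**Figure D2:**
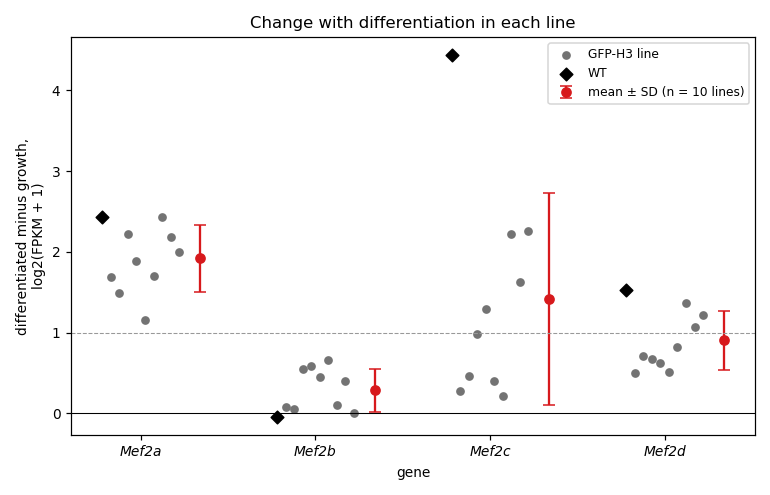
Differentiated minus growth on the log2(FPKM + 1) scale for each Mef2 gene, with 1 point per line, WT as a diamond, and the mean with its SD over the 10 lines beside the points. The mean changes were 1.92 for Mef2a, 0.28 for Mef2b, 1.42 for Mef2c and 0.90 for Mef2d, and the dashed line marks a log2 change of 1.

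The make-up of the family therefore differed between the states. The summed level of the 4 genes went from 38.0 ± 4.99 FPKM in growth to 107 ± 37.7 FPKM after differentiation (SD, n = 10 lines). Mef2d made up 65.5 ± 5.60% of the sum in growth and 46.5 ± 6.57% after differentiation, and Mef2a made up 34.2 ± 5.65% and 50.5 ± 6.41% (SD, n = 10 lines). Mef2a and Mef2d thus changed places as the larger share on average, though Mef2d stayed the larger in H3.1, H3.3, H3mm7 and H3mm16. The ratio of Mef2a to Mef2d ran from 0.348 to 0.798 in growth and from 0.668 to 1.52 after differentiation, and it was higher after differentiation in 10 of 10 lines. Mef2c made up 13.9% of the sum in differentiated WT cells and between 0.302% and 3.49% in the differentiated GFP-H3 lines. Mef2b did not exceed 0.829% in any library. The shares, and which of Mef2a and Mef2d is the larger, rest on the unknown transcript lengths behind the FPKM.

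**Figure D3:**
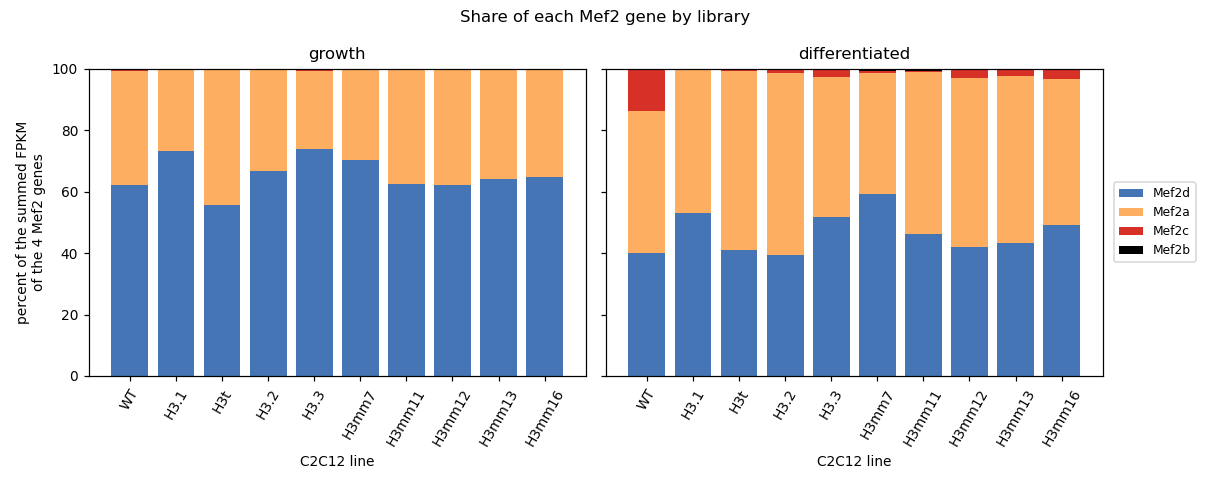
Percent of the summed FPKM of the 4 Mef2 genes taken by each gene in each library, growing lines in the left panel and differentiated lines in the right, with each bar adding to 100 percent. The Mef2a part was larger after differentiation in every line, and a Mef2c part of 13.9% was seen in WT.

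WT stood apart from the other lines in many genes, and every ratio of WT to a GFP-H3 line is to be read beside this. The WT libraries listed the fewest genes above 0, 13858 in growth and 14254 after differentiation. The labels name the same tools for WT as for the other lines, and whether WT was sequenced or processed together with them is not given in the sources used here. WT lay above all 9 GFP-H3 lines for 22.5% of the 10954 genes after differentiation and for 25.9% in growth. The differentiated WT library held 6.42 times the Mef2c level of the next line, H3mm12, and 24.9 times the median of the 9 GFP-H3 lines. The corresponding ratio to the next line was 1.10 for Mef2a and 1.26 for Mef2d. 21 genes had a larger ratio than Mef2c, and 14 of them had names of predicted genes or pseudogenes (a Gm number or the ending ps). All 21 were also above every GFP-H3 line in growth, 20 of them by at least the Mef2c ratio. WT in growth held 0.277 FPKM of Mef2c and the next line 0.266, a ratio of 1.04 between values near the floor. Scaling the libraries by the median ratio over genes changed the Mef2c ratio to 6.21 after differentiation and to 0.965 in growth. The part of the general excess in WT in its Mef2c level was not tested. With 1 library of WT in each state these ratios had no replicate check.

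In the differentiated libraries Mef2a, Mef2c and Mef2d ordered the lines in a similar way, and Mef2b did not. Over the 10 libraries Pearson's r on the log2(FPKM + 1) scale was 0.86 between Mef2c and Mef2d, 0.78 between Mef2a and Mef2c and 0.70 between Mef2a and Mef2d. Over the 9 GFP-H3 lines these were 0.78, 0.70 and 0.54. Mef2b had r of -0.43 with Mef2a, -0.49 with Mef2c and -0.34 with Mef2d, and -0.29, -0.33 and -0.13 over the 9 GFP-H3 lines. In growth the pairs had r between -0.16 and 0.40, with Mef2c and Mef2b near 0 FPKM. These are descriptions of libraries that share their scaling, and in such bulk samples fewer cells that express a gene and less of its RNA per cell cannot be told apart.

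**Figure D4:**
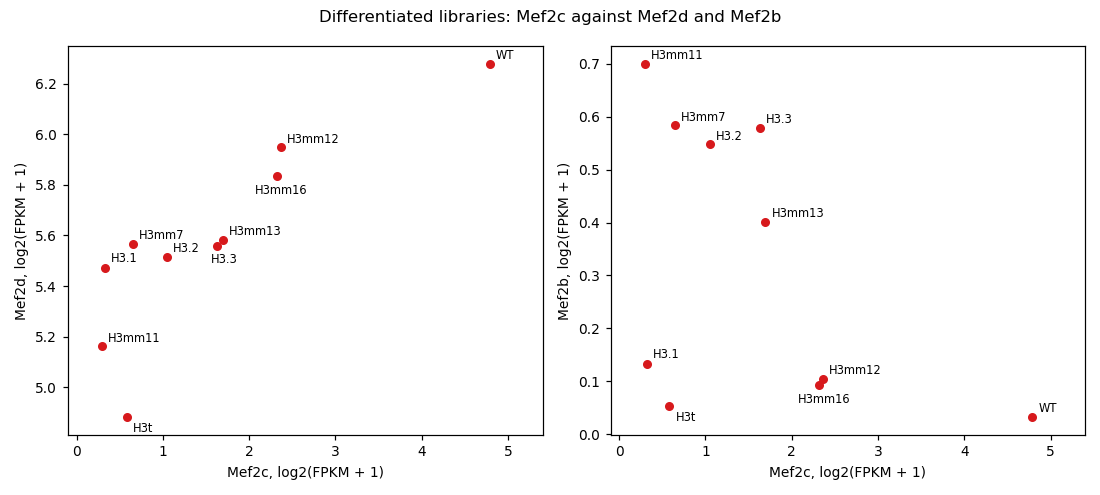
Mef2c level against Mef2d (left) and Mef2b (right) in the 10 differentiated libraries, all on the log2(FPKM + 1) scale, with each point named by its line. Mef2d was highest where Mef2c was highest (r = 0.86 over 10 libraries), while Mef2b was above 0.3 FPKM in H3.2, H3.3, H3mm7, H3mm11 and H3mm13 and below 0.1 FPKM in the other lines.

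The genes closest to each member in pattern were taken as the 3 with the highest r among genes with a mean of at least 1 FPKM. For Mef2c after differentiation they were Actn2, the alpha-actinin of the muscle Z-disc (r = 0.98, rho = 0.84), Pgm5 (r = 0.97, rho = 0.95) and Rab40b (r = 0.96, rho = 0.98), and over the 9 GFP-H3 lines r was 0.93, 0.89 and 0.89. For Mef2a they were Znrd1as, Npnt and Ankrd10 (r = 0.98, 0.98 and 0.97, rho = 0.94, 0.93 and 0.92), for Mef2d Ltbp1, Fam171a2 and Foxo6 (r = 0.96, 0.95 and 0.95, rho = 0.85, 0.84 and 0.99) and for Mef2b Mfap1b, Acox2 and Fbxo42 (r = 0.97, 0.96 and 0.96, rho = 0.93, 0.95 and 0.85). In growth the closest were Ssx2ip, Asb7 and Asph for Mef2a (r = 0.98, 0.97 and 0.95, rho = 0.96, 0.98 and 0.94) and Bcl7b, Atn1 and Snx3 for Mef2d (r = 0.97, 0.96 and 0.96, rho = 0.96, 0.93 and 0.99). For the low members in growth they were Obfc1, Dusp22 and Mest for Mef2c (r = 0.91, 0.90 and 0.89, rho = 0.49, 0.67 and 0.79) and Polr2a, Foxf2 and Rcan2 for Mef2b (r = 0.91, 0.90 and 0.85, rho = 0.92, 0.77 and 0.78). Each value is over 10 libraries and is the highest of about 10951 genes compared.

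The study grouped its H3 variants by sequence into H3.3-type (H3.3 and the 5 H3mm lines here) and H3.1/H3.2-type (H3.1, H3.2 and H3t), and the Mef2 genes were compared between the types in each state. Mef2b was too low to be tested here. Mef2a, Mef2c and Mef2d were not called in any of these comparisons. Of the genes tested, 0.21% were called in growth, 0.749% after differentiation and 0.0% for the difference in the change between states. The last count was 0 of 10954 with limma, and 1002 genes had an unadjusted p below 0.05. Mef2c after differentiation was 2.21 ± 1.65 FPKM in the H3.3-type lines (SD, n = 6) and 0.605 ± 0.418 FPKM in the H3.1/H3.2-type lines (SD, n = 3). The difference was 0.84 on the log2 scale (95% interval 0.10 to 1.58, limma adjusted p = 0.188), for a gene that entered this fit only through the differentiated WT library, which is not among the lines compared. H3mm11 and H3mm7 lay within the range of the H3.1/H3.2-type lines or below it. Mef2a differed by 0.04 (95% interval -0.45 to 0.53) and Mef2d by 0.32 (95% interval -0.12 to 0.76) after differentiation, H3.3-type minus H3.1/H3.2-type, with adjusted p of 0.95 and 0.41 in limma. In growth the differences were -0.05 for Mef2a (95% interval -0.54 to 0.44), 0.08 for Mef2c (-0.66 to 0.82) and 0.01 for Mef2d (-0.43 to 0.45). For Mef2a in both states and for Mef2d in growth the intervals reach past 0.4 in both directions, so a difference of that size lies within them for either sign. Myog, the myogenin gene that acts with MEF2 proteins, was called higher in the H3.3-type lines in growth (2.56, 95% interval 1.62 to 3.51, limma adjusted p = 0.0245). That call held when 4 of the 9 lines were left out 1 at a time and was lost without H3.1 (2.08, adjusted p = 0.107), H3t (2.57, adjusted p = 0.144), H3mm7 (2.38, adjusted p = 0.0571), H3mm13 (2.55, adjusted p = 0.078) or H3mm16 (2.67, adjusted p = 0.0517).

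The partners and regulators of the Mef2 genes were read from lists made from what is known about them, each with the share of tested genes called higher (8.87%) or lower (8.41%) as background. Of the myogenic bHLH factors, Myog rose from 0.106 to 23.1 FPKM in growth to 329 to 1151 FPKM (log2 change 6.34, SE 0.45, limma adjusted p = 1.49e-10), and 1 of the 3 tested was called. Myod1 (0.79, SE 0.48) and Myf5 (-0.05, SE 0.27) did not pass the test, and Myf6 did not reach 1 FPKM in any library. Myog in differentiated WT cells was 1023 FPKM, within the range of the GFP-H3 lines, unlike Mef2c. Among the class IIa deacetylases, which repress MEF2 proteins, Hdac7 fell by 1.08 (SE 0.17, adjusted p = 1.12e-05) and was the only one of 3 tested that was called. Hdac4 and Hdac5 passed the test with changes of 0.71 (SE 0.15) and 0.61 (SE 0.16) that were below the size for a call, and Hdac9 was too low to be tested.

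Of the 13 tested genes for kinases, calcineurin and calcium signalling to MEF2, 2 were called higher and 1 lower, and their median change was -0.0064 against 0.04 for all genes tested. Camk2a, a calcium/calmodulin-dependent kinase, rose by 3.37 (SE 0.27, limma adjusted p = 1.01e-09) and was highest in WT, at 47.3 FPKM against at most 17.2 in the GFP-H3 lines. It averaged 0.186 FPKM in growth and passed the filter through the differentiated libraries. Ppp3ca, a catalytic subunit of calcineurin, rose by 1.34 (SE 0.16), Map2k3, a kinase upstream of p38, fell by 1.35 (SE 0.09), and Map2k6, also upstream of p38, fell by 0.75 (SE 0.19), which passed the test but not the size for a call. Camk2b, Camk4 and Prkd1 were listed at 0 in at least 1 library. None of the 8 tested coactivators was called, and 58.6% of all genes passed the test in either direction whatever their size: Ncoa2, Smarcd3 and Kat2b passed the test with changes of 0.58, 0.61 and 0.35, and Carm1 and Maml1 with -0.72 and -0.19. Ep300 and Crebbp, histone acetyltransferases that bind MEF2 proteins, had changes of -0.0036 and 0.02 that did not pass. Vgll2, a muscle cofactor, had a change of -0.98 (SE 0.30) with all lines and was called lower without WT (-1.03, SE 0.28), and Mamstr was too low to be tested. Of the splicing factors that act on Mef2 transcripts, Ptbp1 fell by 1.65 (SE 0.24, limma adjusted p = 4.45e-06) and Rbfox2 rose by 0.64 (SE 0.14) below the size for a call. Rbfox1, at 0 in 1 library, was too low to be tested. It reached 4.18 FPKM in differentiated WT cells and at most 1.80 FPKM in the differentiated GFP-H3 lines. The FPKM table gives genes and not exons, so the isoforms of the Mef2 transcripts were not measured.

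12 of the 15 tested genes described as MEF2 targets were called higher and 0 lower, with a median change of 3.34 against 0.04 for all genes tested. Without WT 11 were called, Nr4a1 being lost. The list was chosen with earlier results of these data known. Ckm, Mb, Xirp1, Smyd1, Srpk3, Hrc, Cox6a2, Myom1 and Myoz2, all called, averaged 0.0475 (Srpk3) to 0.722 FPKM (Smyd1) in growth. They passed the filter through the differentiated libraries, where they were high. Xirp2, Slc2a4, Ppargc1a and Myoz1, low in both states, had no test. The count is therefore a description. The largest changes were in Ckm, muscle creatine kinase (7.51, SE 0.33), Cox6a2, a muscle cytochrome oxidase subunit (6.33, SE 0.37), Mb, myoglobin (5.44, SE 0.40), and Myoz2, a Z-disc protein (5.35, SE 0.30). Ckm, Cox6a2, Myoz2 and Srpk3, all called, were listed at 0 in 1 to 3 growing libraries, as were Slc2a4 and Myoz1, and the last pair stayed at or below 1.56 FPKM in all libraries. In differentiated cells WT was the highest line for 9 of the 19 genes (Mb, Xirp1, Smyd1, Srpk3, Hrc, Eno3, Pgam2, Slc2a4 and Myom1) and the lowest for 2, beside 22.5% and 17.5% of all genes tested. In growth WT was the highest for 0 of the 19 and the lowest for 2, beside 25.9% and 22.5% of all genes tested. The 19 genes include Xirp2, Slc2a4, Ppargc1a and Myoz1, which had no test, while the percentages cover tested genes only. Of these, Slc2a4 was counted as highest in differentiated WT cells and Xirp2 as lowest in WT in both states. Ckm in differentiated WT cells, at 401 FPKM, lay within the range of the GFP-H3 lines, 94.9 to 607 FPKM.

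**Figure D5:**
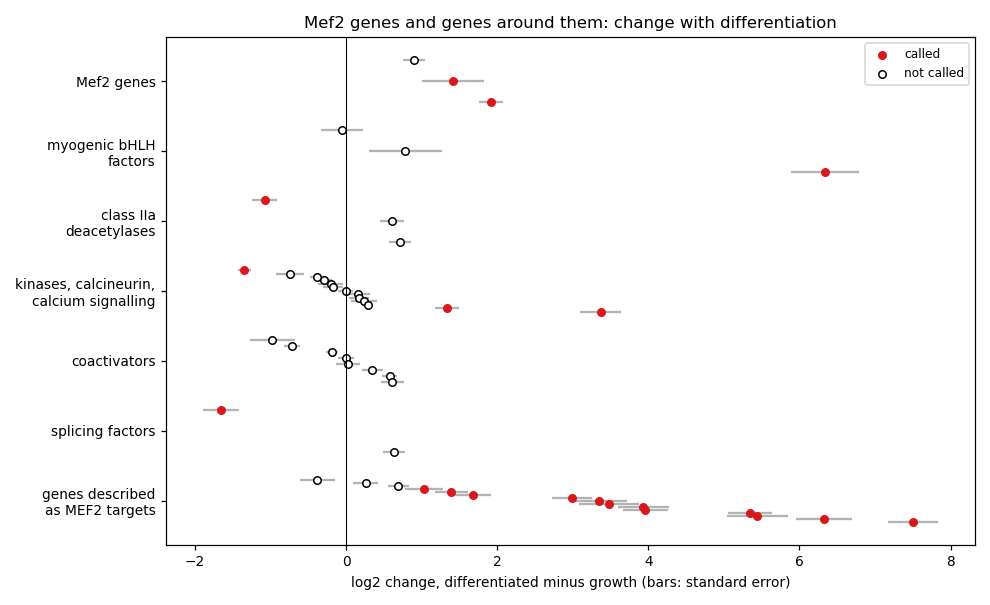
Log2 change from growth to differentiation for the Mef2 genes and 6 lists of genes around them, with 1 point per tested gene and bars of 1 standard error from limma; filled points were called. 12 of 15 genes described as MEF2 targets lie among the filled points on the right, while the coactivators hold no filled point. Many of these targets passed the filter only through the differentiated libraries, where they were high.

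The DNA element that MEF2 proteins bind is shown for a few genes where it was found close to a start site, so that its letters can be seen. The MEF2 consensus, a 10-base element that reads the same on both strands, was searched from 250 bases before to 50 bases after the start in RefSeq promoters of GRCm38.p6, and each promoter was placed in mm9 by a single exact match. It was found in 3.70% of 27025 genes, in 1 of the 4 Mef2 genes (Mef2a) and in 5 of 15 described targets with a promoter in the set. The 30-base windows of Mef2a and of 2 of the targets that were called higher are given 5′ to 3′ on the strand of the gene, with the element in capitals. They lie at chr7:74517727-74517756 (minus), chr11:5703860-5703889 (minus) and chrX:71019667-71019696 (plus), around the start or upstream of it.
Mef2a: ggcctgactcCTAAAAATAGccccggtgtg
Pgam2: ttttgtgagaCTATTTTTAAgttcagctcc
Srpk3: agctgggaggCTATTTATAAaggcgagtga
The element of Mef2a began 2 bases before the annotated start, and those of Pgam2 and Srpk3 began 80 and 67 bases before it. Jun, which was not called, and Xirp2, too low to be tested, also held one. A match of letters is a description and no measurement of binding was used here.

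The libraries held the markers of myoblasts and few of other cell types. The summed level of Myod1, Myf5, Des and Cdh15 was 266 to 724 FPKM in growth and 564 to 1614 FPKM after differentiation. The 3 neuron markers summed to at most 0.0702 FPKM and the 3 leukocyte markers, the cell class for which Mef2b is known, to at most 0.691 FPKM. The 3 endothelial markers summed to at most 7.66 FPKM and the 3 adipocyte markers to at most 5.08 FPKM, both in growth. The first sum came mostly from Cdh5 (up to 7.53 FPKM), with Pecam1 and Kdr at or below 0.221 FPKM. The second came mostly from Fabp4 (up to 4.96 FPKM), with Adipoq and Plin1 at or below 0.110 FPKM. The 3 cardiomyocyte markers summed to 2.52 to 32.7 FPKM, mostly from Nkx2-5, which was lowest in WT in both states. Myh6 was listed at 0 in 6 growing libraries and was highest in differentiated WT cells, at 2.48 FPKM beside 2.01 FPKM of Nkx2-5. The part of these levels in the Mef2 values was not tested.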

How the data were processed

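FPKM values of 20 mRNA libraries were analysed. Per the labels, RNA was reverse-transcribed with an oligo-dT primer and reads were processed with TopHat2 2.0.8, Cufflinks 2.0.1 and Cuffdiff on mm9, and the authors deposited 1 FPKM per gene and library; the annotation is not given in the sources used here, nor is depth, so no counting intervals are given. Each library listed between 13858 and 16865 genes above 0. The 4 members were taken by symbol, and the members and gene lists were chosen with earlier results of these data known. Values were tested as log2(FPKM + 1) with limma 3.58.1 (trend and robust) in R 4.3.3 for the 10954 genes averaging 1 FPKM or more over the libraries. A call needed an adjusted p (Benjamini-Hochberg) under 0.05 together with a log2 change of 1 or more in size. States were compared over 10 lines, and H3.3-type with H3.1/H3.2-type lines over the 18 libraries of GFP-H3 lines in a fit with 4 group means. The lines are units of 1 library per state, and p-values measure the spread between lines. Libraries of the same line came from the same cells, and their deviations from the state means correlated (r over genes of 0.88 for WT and 0.27 to 0.47 for the GFP-H3 lines, each line closest to itself), so a fit with the line as a block was an alternative.

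Named genes were the members, all genes of lists of up to 10, the 4 tested genes with the largest change of longer lists with any listed at 0, and the 3 genes closest to each member in each state; other genes were named after their values were seen. The fits were tested on simulated data with 200 of 10954 genes changed by 2 on the log2 scale. The changed genes were drawn only from genes with a mean log2(FPKM + 1) above 3, which left out Mef2c. Libraries were simulated as independent, without the correlation between libraries of the same line. Of the changed genes, 96.5% were recovered between states and 94.5% between types after differentiation. The type differences of Mef2a, Mef2c and Mef2d after differentiation were 0.04 to 0.84, and changes of that size were not simulated. The rates were not split by level either, so they do not give the power of the type comparison for these genes. Alternatives were another pseudocount, no filter and a stricter filter, median ratio scaling, quantile normalization, no trend or robust setting, and each line left out. The 3′-end and chromatin data of the series were not used here.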

Additional observations from a re-analysis of the deposited data

Results flagged for a closer look

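Among 8 groups of 10 libraries (each Mef2 gene in each state), 1 held a library far from the others. Mef2c in differentiated WT cells was listed at 26.6 FPKM, and the next highest library, H3mm12, at 4.15 FPKM. The gap between them was 0.851 of the whole range of the 10 differentiated libraries, above the limit of 0.466 for 10 samples. For normally distributed values chance passes this limit in about 1 of 20 groups. The rule was applied to FPKM and not to log2 values. This group was skewed, with a mean of 4.17 FPKM and a median of 1.58, so that rate need not hold here. The value comes from 1 library and had no replicate.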

How the results depend on the processing

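Between the states, every alternative kept the direction and the call of Mef2a, Mef2c and Mef2d where a value could be given; Mef2c could not be tested in the 9 GFP-H3 lines under their own filter or with the filter at 5 FPKM, and the change of Mef2b was 1.27 with a pseudocount of 0.1 FPKM. Without each line in turn, Mef2c, tested as one of the genes that pass the filter with WT included, changed by 1.08 (without WT) to 1.55. The fit with the line as a replicate block called 1910 genes against 1893 and changed no member's call; between the types it called 3 genes for the difference between states where the fit without it called 0, and its other type counts were within 1.5 times.

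Type counts moved most. In growth 23 genes were called, against 46 with a pseudocount of 0.1 FPKM, 14 without a filter, 14 with a stricter filter (5 FPKM), and 2 (without H3.1) to 25 (without H3mm11) when a line was left out; 7 of 9 lines moved it by over 1.5 times. After differentiation 82 became 134, 39 and 49 under the same settings, and 3 (without H3.1) to 295 (without H3.2), 8 of 9 lines moving it. For the difference between states, 0 became 2 without a filter, 1 with the filter at 5 FPKM, 4 with quantile normalization, and 0 to 2 (without H3.2) when a line was left out. The type difference of Mef2a after differentiation turned to -0.015 with quantile normalization and ran from -0.11 to 0.29 over lines left out. That of Mef2d in growth ran from -0.23 to 0.17, and that of Mef2a between states from -0.064 to 0.30; none of these values was called. The cause of these shifts was not tested. Depth was unknown, which limits what can be said of Mef2b and of Mef2c in growth.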

Other observations

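Mef2b was compared after differentiation with Ddit3 and Hspa5, genes of the response to misfolded protein in the endoplasmic reticulum, which were chosen after their values were seen. Ddit3 was 582 FPKM in H3.2, 535 in H3.3, 945 in H3mm7, 596 in H3mm11 and 242 in H3mm13, the 5 lines with Mef2b above 0.3 FPKM, and at most 169 FPKM in the other 5 lines. Hspa5 did not divide the lines in this way. It was 1687 to 3688 FPKM in H3.2, H3.3, H3mm7 and H3mm11, but 576 FPKM in H3mm13, below WT at 665 FPKM. The study reported higher levels of genes of endoplasmic reticulum stress in the differentiated H3.3, H3mm7 and H3mm11 lines. Over the 10 libraries Mef2b had r = 0.93 (rho = 0.89) with Ddit3 and r = 0.90 (rho = 0.72) with Hspa5 on the log2(FPKM + 1) scale, while Mef2a, Mef2c and Mef2d had r between -0.42 and -0.16. Over the 9 GFP-H3 lines Mef2b had r = 0.93 with Ddit3 and 0.96 with Hspa5. In those lines the other members had r between -0.43 (Mef2a with Hspa5) and 0.02 (Mef2d with Ddit3). The libraries share their scaling, Mef2b did not exceed 0.624 FPKM, and no test was made.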
